A study of Homo sapiens with 8 samples.

Results

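The change that a splicing drug made to the recovery of RNA by the double-stranded RNA antibody J2 was followed intron by intron, in all 8 of 8 libraries of the series. For each intron, and for each gene, the change of recovery is the difference between J2 RNA and input with drug minus the same difference with vehicle, on the log2 scale of reads scaled to library depth. Above 0, the drug raised recovery by J2, and below 0 it lowered it. Recovery is a ratio of depth-scaled reads, not an amount of double-stranded RNA. Of 142206 introns with usable values in 15902 genes, 5156 had enough intronic reads to be tested by themselves, and 3735 of these, in 1678 genes, could also be set against the other introns of their own gene. Introns that departed from the rest of their gene are the main subject.

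The SF3b complex is the part of the U2 small nuclear ribonucleoprotein that recognises the branch point near the end of an intron. H3B-8800 binds SF3b and hinders that step, so that affected introns stay in the RNA. J2 is a mouse monoclonal antibody that binds double-stranded RNA with little regard to sequence. Introns can form such duplexes, for instance where inverted Alu repeats pair, and RNA of this kind is sensed by receptors such as MDA5 (gene IFIH1) and by the kinase PKR (gene EIF2AK2).

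The cells were SUM159, an established line from a human breast cancer without hormone receptors or HER2 (triple-negative). They were exposed for 12 h to H3B-8800 or to its solvent DMSO as vehicle, in biological duplicate per the labels. Polyadenylated RNA was sequenced as input or after J2 immunoprecipitation, which gave 4 groups of 2 libraries, since each kind of RNA was taken from vehicle-treated and from drug-treated cells. The sources used here give no dose. The model is 1 cell line, polyadenylated RNA alone was read, and no immunoprecipitation with a control antibody is among the libraries, so a change of recovery is not shown to be a change of double-stranded RNA. Since these are bulk libraries, fewer cells of a kind and less RNA per cell cannot be told apart.

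Depths ran from 47000000 to 57000000 reads per library. Replicates agreed least in J2 RNA with drug, where the SD of the log2 difference between the 2 libraries was 0.289 over genes for spliced reads, against 0.165 to 0.190 in the other groups. The cell label was checked against marker lists: 8 mesenchymal markers summed to 1209 to 1628 RPM (reads per 1000000 of library depth) of spliced reads over the libraries, and the 5 immune markers listed summed to at most 0.830 RPM. Luminal markers were present too, at 167 to 265 RPM. The drug moved intronic reads of genes in the same direction in input and in J2 RNA, with a Pearson correlation of 0.88 between both drug effects over 3579 genes with 10 or more reads in every library. Over the spliced reads of 8498 genes the correlation was 0.58, with 29.6% of the genes of opposite sign, and over the junction shares treated last it was -0.21. The effects share no library, and an exchange of the treatments in 1 kind of RNA would turn the sign of each correlation. It was positive for intronic and spliced reads of genes and negative for junction shares, and no further test of the labels was made.

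For a few of the introns that departed from their gene, the sequence could be read, because another GENCODE 29 transcript of the gene keeps them. The ends of 7 are shown, 5′ to 3′ on the transcribed strand of GRCh38, since the end of an intron holds the region that SF3b contacts. The capitals mark the last 2 bases of the intron, the AG of the splice acceptor. The first 4 had recovery raised by the drug relative to the rest of their gene, and the last 3 had it lowered.
FADS3 intron 8 of 11, chr11:61876456-61876515, minus strand: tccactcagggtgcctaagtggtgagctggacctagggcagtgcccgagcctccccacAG
AKT1 intron 9 of 14, chr14:104773581-104773640, minus strand: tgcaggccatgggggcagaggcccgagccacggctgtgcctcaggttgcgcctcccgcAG
FLNA intron 43 of 47, chrX:154351042-154351101, minus strand: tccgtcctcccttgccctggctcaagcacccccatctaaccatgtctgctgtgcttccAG
SLC25A39 intron 7 of 11, chr17:44321232-44321291, minus strand: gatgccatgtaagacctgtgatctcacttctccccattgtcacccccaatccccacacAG
PROSER3 intron 1 of 10, chr19:35759314-35759373, plus strand: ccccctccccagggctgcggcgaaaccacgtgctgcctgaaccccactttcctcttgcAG
RPS14 intron 2 of 4, chr5:150446964-150447023, minus strand: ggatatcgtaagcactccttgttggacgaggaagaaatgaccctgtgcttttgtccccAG
RPS21 intron 5 of 5, chr20:62388427-62388456, plus strand: cttaacgttgtccttttcccctggttctAG

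These ends did not separate by the share of pyrimidines (C or T) in a window of 40 bases. That window stops just before the acceptor AG and the base ahead of it. The share was 47.5% in FADS3, 55% in AKT1, 65% in FLNA and 72.5% in SLC25A39, and 62.5% in PROSER3, 52.5% in RPS14 and 65% in RPS21. Over the whole intron, the GC content was 60.2% in FADS3, 68.6% in AKT1, 64.0% in FLNA and 59.9% in SLC25A39. In PROSER3, RPS14 and RPS21 it was 55.4%, 45.9% and 54.4%. The raised introns shown were thus all above the lowered ones in GC. A further lowered intron with a readable sequence, in KIZ, is not shown. It had a GC content of 50.3% and 50% pyrimidines in the same window. With so few introns, chosen among those with a readable sequence, these values are a description without a test.

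Before single introns, the common shift has to be stated. The recovery of a tested intron rose by a median of 0.49 on the log2 scale when reads were scaled to depth, and 927 of 5156 introns (18%) passed the threshold, an adjusted p under 0.05 in edgeR's quasi-likelihood test with Benjamini-Hochberg adjustment. Of these, 784 (15.2%) had higher and 143 (2.77%) had lower recovery with drug. That split depends on the scaling. Under TMM scaling the median shift was -0.05 and the calls were 243 higher and 461 lower, and under median-of-ratios scaling the median was -0.01 with 266 higher and 437 lower. Setting an intron against the other introns of its gene within each library removes depth from the comparison, and the results below rest on that.

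Against the other introns of the gene, 212 of 3735 introns (5.68%), in 166 genes, changed their recovery with drug. Recovery was raised relative to the rest in 93 (2.49%) and lowered in 119 (3.19%), and the median over all introns tested was 0.01. Of the 166 genes, 41 held both a raised and a lowered intron. Each intron is part of the reference for the others of its gene, so such calls are not separate events. A second test set each intron against the spliced reads of its gene, where 579 of 5024 introns (11.5%) were called, 378 (7.52%) higher and 201 (4%) lower. Both tests called 93 introns in the same direction, 56 raised and 37 lowered, and 2 in opposite directions. Both use the same reads of the intron, so the second is not independent of the first. Requiring at least 20 reads in every group left 58 introns, and requiring no exon of another gene on either strand left 47, of which 24 were raised and 23 lowered. Under those rules 67 of the 212 calls rested on fewer than 20 reads in a group.

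Most of the 47 also passed in the depth-scaled test of the intron alone, and the others departed from their gene without passing there. Depth-scaled values carry the common shift, a median of 0.49 over all introns tested, so this division depends on the scaling. Of the 24 raised introns, 22 also rose in the depth-scaled test of the intron alone, where the median of the 24 was 2.23. Of the 23 lowered introns, 13 also fell in that test, with a median of -1.03 over the 23. With TMM scaling these counts were 17 of 24 and 20 of 23, and with median-of-ratios scaling 18 of 24 and 20 of 23. On the depth scale, the lowered intron itself changed by -0.48, -0.04, -0.21, -0.06 and 0.06 in SNX5, ROS1, SSH1, RAPGEF1 and LONP1. The other introns of these genes gained recovery on that scale.

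**Figure D1:**
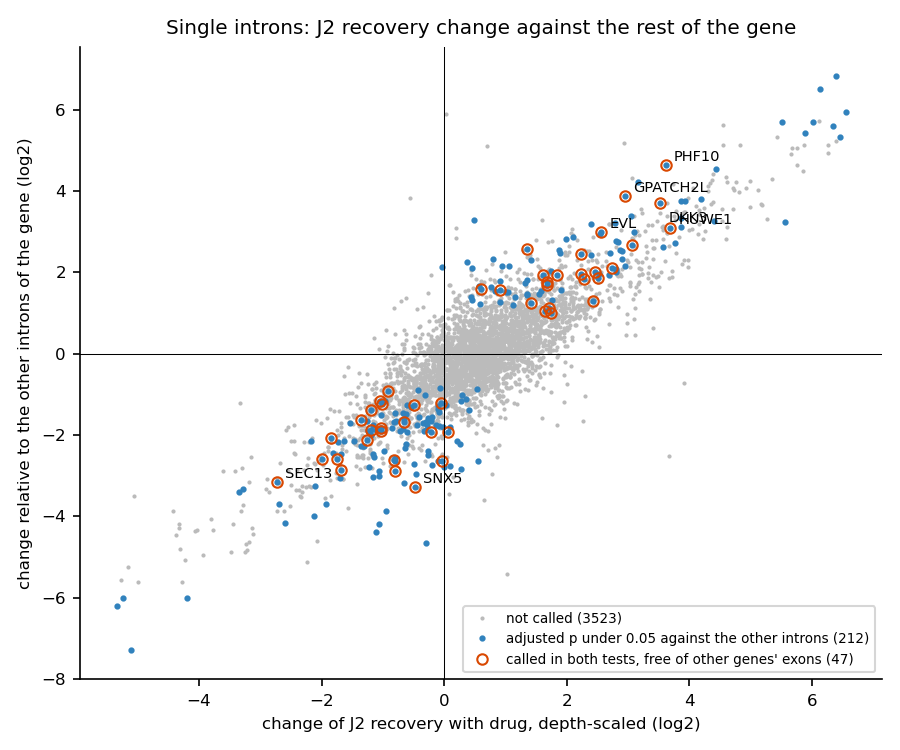
Each point is 1 of 3735 introns. The x axis is the change of J2 recovery with drug scaled to library depth and the y axis is the change relative to the other introns of the same gene, both in log2. Blue points are the 212 introns called against the other introns, and open circles are the 47 called in both tests with enough reads and no exon of another gene. Calls lie both above and below 0, and some lowered introns sit near 0 on the x axis.

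With vehicle, all 24 raised introns had a ratio of J2 to input RPM below 1, with a median of 0.329. Choosing introns for a raised change favours a low ratio with vehicle, and for a lowered change a high one, so these values are a description. Over all 3735 introns tested the median ratio was 0.845 with vehicle, where 2241 were below 1, and 1.27 with drug, where 1277 were. With drug the median ratio of the raised introns was 1.49 and 16 of the 24 were above 1. The 23 lowered introns had a median ratio of 1.28 with vehicle, 16 of them above 1, and of 0.705 with drug, with 19 below 1. Mean RPM in the input was higher with drug in 16 of the 24 raised introns and in 17 of the 23 lowered ones, with median ratios of drug to vehicle of 1.72 and 2.92. Both classes therefore held introns with more and introns with fewer input reads under drug. Drug and vehicle within one kind of RNA are set side by side here as values, without a test of their own.

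**Figure D2:**
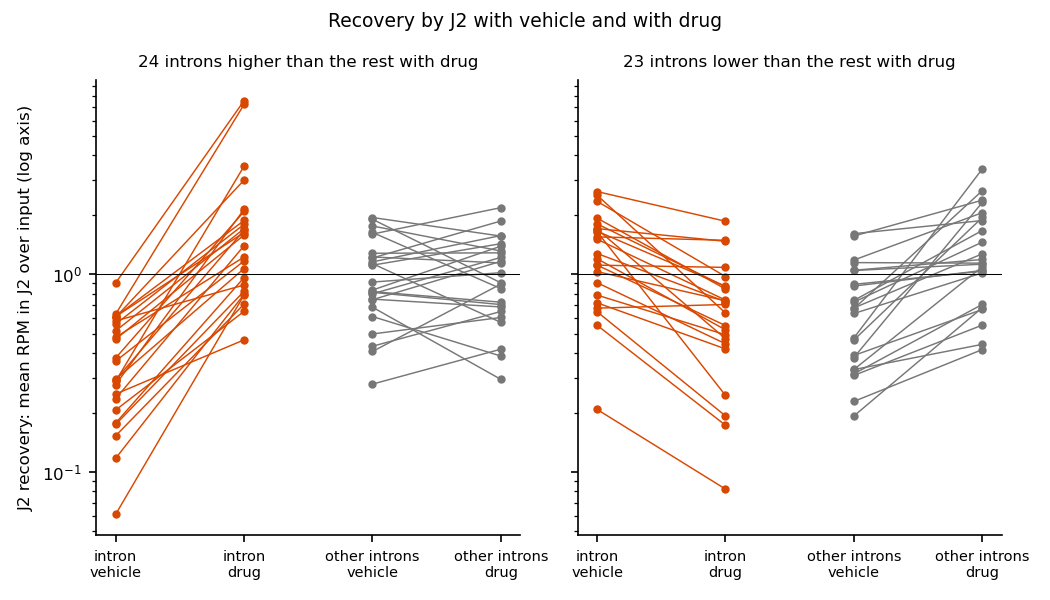
The y axis is the ratio of mean RPM in J2 RNA to mean RPM in the input, on a log axis. Each orange line joins the vehicle and the drug value of 1 intron, and each grey line joins the values of the other introns of its gene pooled. The left panel holds the 24 raised introns, all below 1 with vehicle, and the right panel the 23 lowered introns.

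In 33 of the 47 introns, an annotated exon of another transcript of the same gene covers a part of the intron, so that reads inside it can come from that exon. Such partial cover was present in 52.5% of all introns tested against the other introns. The other 14 of the 47 are not partly covered in this way and are described first. Of these, 11 held no annotated exon of any transcript, whereas in 3, FADS3 intron 8, RPS14 intron 2 and RPS21 intron 5, an exon of another transcript covers the whole intron, and reads of that transcript fall there too. Of the 14, 5 were raised: INPP5A, FADS3, B4GALT2, WDR83OS and ANPEP. The other 9, in RPS21, RPS14, SEC13, ROS1, ANKMY1, SSH1, ITPR3, UNC5B and DNAAF5, were lowered.

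The clearest of the lowered introns lay in a ribosomal protein gene. RPS21 encodes a protein of the small ribosomal subunit, and its last intron (intron 5 of 5, chr20:62388365-62388456 on GRCh38, 92 bases, within the gene) held 3.81 and 4.0 RPM in the input with vehicle and 15.3 and 18.1 with drug. In J2 RNA it held 2.34 and 2.72 RPM with vehicle and 3.18 and 3.25 with drug. As a share of all intronic reads of RPS21, that was 62.5% and 62.4%, then 43.2% and 44.1% in the input, against 78.0% and 77.5%, then 22.6% and 20.05% in J2 RNA. The 2 J2 libraries with drug held the lowest shares of the 8 and the 2 with vehicle the highest, with no overlap between groups. The change against the other introns was -2.59 ± 0.33 (SE, edgeR, adjusted p = 6.69e-07), and it ran from -2.70 to -2.48 when each library was left out in turn. Against the spliced reads of the gene it was -0.93 ± 0.22 (adjusted p = 0.00940).

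The other introns of RPS21 took a different course. The fourth (394 bases) went from 10.1% ± 2.2 (SD, n = 2) to 43.3% ± 0.1 of the gene's intronic reads in the input and from 9.71% ± 3.9 to 63.3% ± 3.0 in J2 RNA. Its recovery was 0.514 with vehicle and 0.580 with drug. The first (184 bases), in which another RPS21 transcript has an exon, was raised against the others by 1.58 ± 0.38 (edgeR adjusted p = 0.0107) with a recovery of 0.248 and 0.466. Scaled to depth, the change of this first intron alone was 0.91 ± 0.35 and did not pass (edgeR adjusted p = 0.0729). The others, intron 5 among them, went from a recovery of 0.612 to 0.386. RPS21 was the 1 gene of 166 with a raised and a lowered intron called in both tests. Against the other introns alone, 44 of the 166 genes held 2 or more calls. Of these 44, 41 held calls in opposite directions. Introns of a gene are part of the reference for each other, so opposite signs within a gene are not independent.

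RPS14 encodes another protein of the small subunit. Its intron 2 of 4 (chr5:150446964-150447584, 621 bases) held 1.88 and 1.69 RPM in the input with vehicle and 9.94 and 10.6 with drug, and 0.811 and 1.16 RPM against 1.82 and 1.72 in J2 RNA. It was higher with drug in both kinds of RNA, but less so in J2 RNA, and its recovery went from 0.553 to 0.172. The other introns of RPS14 went from 0.314 to 0.705, but they held as few as 20 reads in a group, the least that was allowed. The change against them was -2.85 ± 0.62 (edgeR adjusted p = 0.00329) and ran from -3.87 to -2.05 when each library was left out in turn. With limma and a pseudocount of 1 the change did not pass (adjusted p = 0.0752). Ribosomal protein genes have many processed pseudogenes, which hold no introns, so the intronic reads are less exposed to them than the spliced reads.

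SEC13 encodes a protein of the COPII vesicle coat and of the nuclear pore. Its intron 3 of 9 (chr3:10315437-10318049) held 0.146 and 0.294 RPM in the input with vehicle and 1.30 and 1.25 with drug, and 0.321 and 0.404 RPM against 0.320 and 0.302 in J2 RNA. It was higher with drug in both input libraries. In J2 RNA both values with drug lay below both with vehicle, the nearest at 0.320 against 0.321 RPM. The change was -3.16 ± 0.83 against the other introns (edgeR adjusted p = 0.0170, and up to 0.0879 without 1 library), the largest fall of the 14. The files list 3 introns of this gene.

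In ROS1, a receptor tyrosine kinase gene, the intron's own recovery was level when scaled to depth, and that of the other introns rose. Intron 17 of 42 (chr6:117366291-117379058) was recovered at 1.11 with vehicle and 1.09 with drug, whereas the other introns went from 0.380 to 2.31. Its share of the intronic reads was 29.7% and 30.8% in vehicle-treated input, 53.0% and 44.6% in drug-treated input, 55.6% and 56.4% in J2 RNA with vehicle and 31.0% and 31.6% with drug. The change of -2.63 ± 0.38 (edgeR adjusted p = 8.99e-06) was called in each of the 8 fits without 1 library. The same held for SSH1, a cofilin phosphatase gene, where intron 10 of 14 (chr12:108802369-108805055) went from 1.71 to 1.47 and the other introns from 0.330 to 1.09 (-1.93 ± 0.52, adjusted p = 0.0188, 2 of 8 fits).

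First introns were also among the lowered ones. ITPR3 encodes an inositol trisphosphate receptor, a calcium channel of the endoplasmic reticulum, and its intron 1 of 57 (chr6:33621692-33640483) made up 21.3% and 21.9% of the gene's intronic reads in the input with vehicle and 7.68% and 8.35% with drug. In J2 RNA it made up 25.4% and 26.5% with vehicle and 3.84% and 2.21% with drug. The share was lower with drug in both kinds of RNA, and by more in J2 RNA (-1.83 ± 0.40, edgeR adjusted p = 0.00351). ANKMY1 intron 12 of 14 (chr2:240482262-240499957) followed the same course, from 11.6% and 8.77% to 6.07% and 4.21% in the input and from 15.1% and 15.8% to 1.61% and 1.17% in J2 RNA (-2.59 ± 0.46, adjusted p = 0.000222).

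UNC5B, a netrin receptor gene, and DNAAF5, a gene for the assembly of axonemal dynein, gave the smallest falls of the 14. UNC5B intron 2 of 15 (chr10:71280046-71284719) changed by -1.26 ± 0.36 against the other introns (edgeR adjusted p = 0.0270), and its own change of -0.49 did not pass (adjusted p = 0.103). DNAAF5 intron 12 of 12 (chr7:780145-785516) was recovered at 1.66 with vehicle and 0.871 with drug, while the rest of the gene stood at 1.15 and 1.14 (-0.92 ± 0.27, adjusted p = 0.0306). Both had their calls in 3 and 2 of the 8 fits that leave out 1 library.

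Among the 5 raised introns of the 14, FADS3, a gene of the fatty acid desaturase family, gave the largest change of the intron itself. This is one of the introns that another transcript keeps whole. Intron 8 of 11 (chr11:61876456-61876865, 410 bases) held 2.77 and 2.94 RPM in the input with vehicle and 1.28 and 1.67 with drug, but 0.830 and 0.842 RPM in J2 RNA with vehicle and 2.36 and 2.57 with drug. It was lower with drug in the input and higher with drug in J2 RNA, with no overlap in either. Its recovery went from 0.293 to 1.67 (2.51 ± 0.33 for the intron alone, edgeR adjusted p = 1.09e-05), and against the other introns, which went from 0.745 to 1.17, the change was 1.87 ± 0.46 (adjusted p = 0.0115). Reads spliced across the same intron went the other way relative to the other junctions of FADS3, by -1.11 ± 0.32 (adjusted p = 0.0201).

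INPP5A encodes an inositol polyphosphate phosphatase, and its intron 12 of 15 (chr10:132765847-132777670) made up 15.4% and 16.3% of the gene's intronic reads in the input with vehicle and 26.1% and 22.4% with drug. In J2 RNA it made up 5.66% and 5.47% with vehicle and 27.0% and 28.8% with drug (1.93 ± 0.50, edgeR adjusted p = 0.0151). Here J2 RNA with vehicle was the group that stood apart. B4GALT2, a galactosyltransferase gene, also had its lowest shares in J2 RNA with vehicle, in intron 3 of 6 (chr1:43981925-43984864). Its share in J2 RNA was 3.82% and 3.30% with vehicle and 6.64% and 6.99% with drug. In the input the B4GALT2 share fell with drug, from 12.2% and 10.8% to 6.76% and 8.02%, where that of INPP5A rose. The B4GALT2 change of 1.68 ± 0.35 (adjusted p = 0.00210) was called in each of the 8 fits that leave out 1 library.

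ANPEP encodes aminopeptidase N, a surface peptidase also known as CD13. Its intron 2 of 20 (chr15:89805464-89805969) went with drug from 1.90 and 2.00 to 11.9 and 11.3 RPM in the input and from 0.755 and 1.26 to 20.7 and 18.9 RPM in J2 RNA. The difference was larger in J2 RNA (1.71 ± 0.24 for the intron alone, edgeR adjusted p = 2.04e-05), and against the other introns it was 1.13 ± 0.29 (adjusted p = 0.0130). WDR83OS intron 1 of 3 (chr19:12669234-12669353, 120 bases) was among the most abundant of these introns, at 32.6 and 32.9 RPM in the input with drug and 30.3 and 27.7 RPM in J2 RNA with drug. It changed by 0.60 ± 0.21 by itself and by 1.59 ± 0.48 against the other introns (adjusted p = 0.0384, called in 3 of 8 fits), whose recovery went from 1.13 to 0.572.

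**Figure D3:**
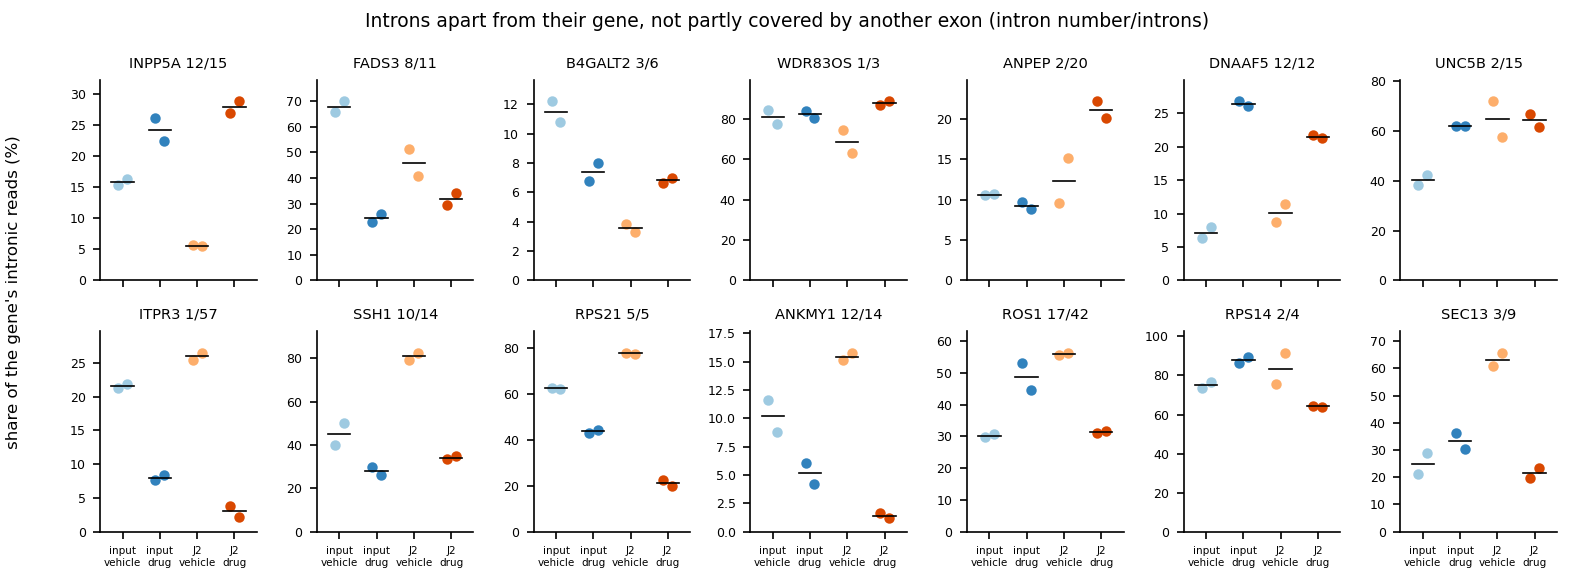
Each panel is 1 of the 14 introns that no other annotated exon covers in part, among them FADS3, RPS14 and RPS21, where an exon of another transcript covers the whole intron, with the gene, the intron number and the number of introns above it. The y axis is the share of the gene's intronic reads in that intron, in percent, each point is 1 library and the line is the mean of the 2 libraries of a group. RPS21 intron 5 stands at a mean of 21.3% in J2 RNA with drug and 77.7% with vehicle, and INPP5A intron 12 is lowest in J2 RNA with vehicle.

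The largest raised changes all lay in introns with an exon of another transcript of the same gene, which held for 10 of 10 named by size. Such an exon lay in 52.5% of all introns tested and in 58.9% of the 56 raised in both tests. PHF10, a subunit of the PBAF chromatin remodelling complex, gave the largest raised change. Its intron 9 of 11 (chr6:169705725-169710235) held 3.27 and 3.41 RPM in the input with vehicle and 1.55 and 1.42 with drug, against 0.906 and 1.02 RPM in J2 RNA with vehicle and 4.10 and 6.40 with drug. This intron was lower with drug in the input and higher with drug in J2 RNA, without overlap. Recovery went from 0.288 to 3.53 while that of the other PHF10 introns went from 1.90 to 0.907, a change of 4.64 ± 0.55 (edgeR adjusted p = 1.18e-07). It was called in each of the 8 fits that leave out 1 library, with values from 4.22 to 5.03.

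DKK3 encodes a secreted protein of the Dickkopf family, whose other members bind receptors of the Wnt pathway. Its intron 3 of 7 (chr11:11998780-12002299) went in the input from 2.88 and 2.59 to 0.468 and 0.375 RPM with drug and stood at 2.02 and 1.42 RPM with vehicle and 2.38 and 3.74 with drug in J2 RNA. Recovery rose from 0.630 to 7.25, against 0.819 and 0.724 for the other introns (3.70 ± 0.54, edgeR adjusted p = 8.99e-06). HUWE1, a ubiquitin ligase gene, had the least recovered intron of the 47 with vehicle. Intron 2 of 83 (chrX:53680187-53686269) was recovered at 0.0610 with vehicle and 0.786 with drug (3.08 ± 0.59, adjusted p = 0.000634), and the reads spliced across it rose as well relative to the other junctions (4.67 ± 0.29, adjusted p = 7.42e-06).

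EVL encodes an actin regulator of the Ena/VASP family, and TRIO a guanine nucleotide exchange factor. EVL intron 11 of 13 (chr14:100137803-100141179) made up 51.5% and 63.2% of the gene's intronic reads in the input with vehicle and 4.20% and 3.34% with drug, but 13.7% and 17.1%, then 3.52% and 4.51% in J2 RNA (2.99 ± 0.44, edgeR adjusted p = 1.00e-05). TRIO intron 30 of 56 (chr5:14399071-14400962) was higher with drug in both, at 1.49 and 1.06 RPM in the input and 6.96 and 12.4 RPM in J2 RNA (2.67 ± 0.59, adjusted p = 0.00371). CSNK1E, a casein kinase gene, and SH3TC1 kept their calls in each of the 8 fits without 1 library. CSNK1E intron 9 of 10 (chr22:38293320-38294108) was recovered at 0.117 with vehicle and 0.793 with drug (2.11 ± 0.36, adjusted p = 0.000142). SH3TC1 intron 12 of 17 (chr4:8228645-8231975) went from 0.378 to 2.08 (2.01 ± 0.35, adjusted p = 0.000196).

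GPATCH2L, FXYD5 and NADSYN1 had fewer reads. GPATCH2L intron 9 of 9 (chr14:76195973-76201690) changed by 3.88 ± 0.74 (edgeR adjusted p = 0.000645) with 0.453 and 0.193 RPM in J2 RNA with vehicle and 0.800 and 1.49 with drug. FXYD5, a regulator of the sodium pump, changed in intron 8 of 8 (chr19:35166326-35169565) by 2.58 ± 0.70 (adjusted p = 0.0184), but by 1.35 for the intron alone, which did not pass (adjusted p = 0.0738). NADSYN1, the enzyme for the last step of NAD synthesis, was the 1 gene with 2 introns called in the same direction in both tests. Its neighbouring introns 9 (chr11:71474527-71478394) and 10 (chr11:71478470-71480754) went from recoveries of 0.294 and 0.152 to 1.07 and 0.708, changes of 1.95 ± 0.54 (adjusted p = 0.0238) and 2.46 ± 0.70 (adjusted p = 0.0258). Introns 3 and 5 of NADSYN1 changed by -0.05 and -1.11 and did not pass. FXYD5 and NADSYN1 intron 10 were each called in 2 of the 8 fits without 1 library.

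Among lowered introns with an exon of another transcript, SNX5, a sorting nexin of the endosome, gave the largest change. Intron 4 of 13 (chr20:17954118-17955364) was higher with drug in both kinds of RNA, from 0.396 and 0.490 to 8.36 and 8.69 RPM in the input and from 1.42 and 0.912 to 16.6 and 15.1 RPM in J2 RNA. Its recovery was 2.63 and 1.86, while the other introns went from 0.477 to 3.42 (-3.28 ± 0.56, edgeR adjusted p = 0.000159). EIF3E intron 1 of 12, in the gene of a translation initiation factor subunit, changed by -2.89 ± 0.77 (adjusted p = 0.0183, called in 3 of 8 fits) with at most 1.81 RPM in any library. KIZ intron 10 of 10 (chr20:21244289-21246478), in the gene of a centrosomal protein, made up 88.3% and 84.7% of intronic reads in J2 RNA with vehicle and 37.3% and 31.4% with drug (-2.60 ± 0.68, adjusted p = 0.0163).

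DCUN1D5, a factor for the attachment of NEDD8 to cullins, and IPO5, a nuclear import receptor, completed the 10 lowered introns. DCUN1D5 intron 4 of 7 (chr11:103066568-103082747) held 5.57 and 5.58 RPM in J2 RNA with vehicle and 1.62 and 1.00 with drug, against 3.46 and 3.12, then 3.0 and 2.54 RPM in the input. The libraries that stood apart were thus those of J2 RNA (-1.85 ± 0.29 for the intron alone, edgeR adjusted p = 9.27e-05) and stood at -2.08 ± 0.54 against the other introns. IPO5 intron 13 of 28 (chr13:98000646-98002466) was recovered at 2.34 with vehicle and 0.976 with drug (-2.11 ± 0.57, adjusted p = 0.0183).

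**Figure D4:**
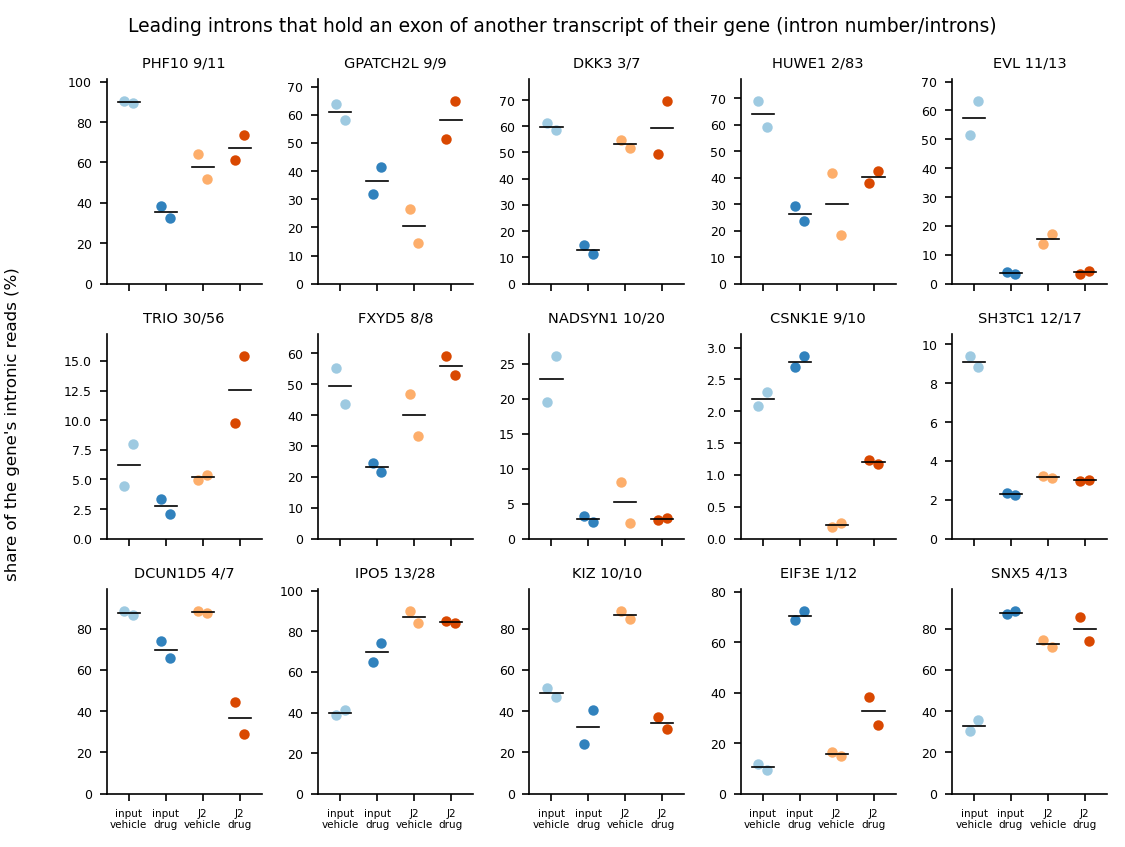
Each panel is 1 of 15 leading introns that hold an exon of another transcript of their gene, 10 raised and 5 lowered. The y axis is the share of the gene's intronic reads in that intron, in percent, with 1 point per library and a line at the mean of the 2. DCUN1D5 intron 4 is lowest in J2 RNA with drug, and EVL and NADSYN1 hold their largest shares in the input with vehicle.

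The remaining introns of the 47 moved less, between 1.00 and 1.96 in the raised class and between -0.92 and -1.93 in the lowered class. The raised ones included AKT1 intron 9 of 14, in the gene of a growth signalling kinase (1.84 ± 0.50, edgeR adjusted p = 0.0183), and FLNA intron 43 of 47, in the gene of the actin crosslinker filamin A (1.30 ± 0.34, adjusted p = 0.0175). SLC25A39, a mitochondrial carrier gene, gave 1.00 ± 0.30 for intron 7 of 11 (adjusted p = 0.0384). The SLC25A39 call was kept in 2 of the 8 fits that leave out 1 library, where the change ran from 0.77 to 1.27, and it was lost with a replicate block (adjusted p = 0.0521). Among the lowered ones was KRT7 intron 3 of 8, in a keratin gene (-1.24 ± 0.23, adjusted p = 0.000445). LONP1 intron 4 of 17, in the gene of a mitochondrial protease, gave -1.93 ± 0.28 (adjusted p = 8.99e-06), with its own recovery at 0.675 and 0.705 and that of the other introns at 0.671 and 2.66.

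Single libraries had weight in these calls. Against the other introns, 14 of the 47 were called in each of the 8 fits that leave out 1 library, and in both tests 7 were: PHF10, DKK3, EVL, CSNK1E, RPL7A, B4GALT2 and SNX5. In 7 of the 8 fits the introns of HUWE1, TRIO, INPP5A, ITPR3, PROSER3 and RPS14 and intron 1 of RPS21 were called, and in 5 of the 8 those of FADS3, ANPEP, ERGIC1, KIZ and RAPGEF1. A further 9 introns, AKT1, FLNA, SEC13, DCUN1D5, IPO5 and NADSYN1 intron 9 among them, were called in 4 of the fits, 6 in 3, 5 in 2 and 1, in EIF3G, in a single fit. Of the fits without 1 library, the one without replicate 2 of the input with drug called the fewest of the 47, 25. With a floor of 0.2 RPM in place of 1 RPM, 17 of the 47 were called against the other introns and 8 in both tests, and limma with a pseudocount of 1 called 22 against the other introns. None of the 47 changed sign in any fit run, but for the fits without 1 library that was a condition for being among the 47.

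The position and length of the called introns are given as a description. First listed introns made up 14.8% of all introns tested, 6.45% of the 93 raised and 24.4% of the 119 lowered. The median length was 1137 bases over all introns tested, 2015 in the raised and 2733 in the lowered, and 46.7%, 36.6% and 19.3% were shorter than 1000 bases. For the introns called in both tests the difference in length was mainly in the lowered ones: the 56 raised had a median of 1231 bases with 44.6% under 1000, and the 37 lowered a median of 3367 with 10.8%. Introns with a small RNA gene inside made up 2.12% of all tested, 2.15% of the 93 and 7.56% of the 119. Calls need reads, and long introns collect more of them, and no test was made of these shares. The raised and the lowered introns are not independent classes, since 41 genes held both.

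Over introns, the depth-scaled change rose with GC content (Spearman correlation 0.23 over 1006 introns with a sequence) and fell with length (-0.17 over 5156). It also went with the predicted folding energy per 100 bases, which is more negative for stronger folding (-0.24 over 866 introns of up to 1000 bases). Against the other introns of the gene the same correlations were 0.07 over 816, -0.08 over 3735 and -0.11 over 716. These are descriptions across introns that share libraries and base composition, and they are weak.

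By gene, recovery of spliced RNA changed in 4198 of 8461 genes (49.6%) and that of intronic RNA in 1144 of 3992 (28.7%). Spliced RNA was higher in 3027 (35.8%) and lower in 1171 (13.8%), and intronic RNA was higher in 1027 (25.7%) and lower in 117 (2.93%). These splits turn with the scaling. Median-of-ratios scaling gave 1817 higher and 2189 lower for spliced and 336 and 409 for intronic reads, and TMM scaling gave 2258 and 1743 for spliced and 299 and 449 for intronic reads. The median change was 0.28 for spliced and 0.46 for intronic reads, and became -0.05 and -0.02 under median-of-ratios and 0.08 and -0.06 under TMM scaling. Of 3837 genes tested in both, 593 were higher and 34 lower in both, 74 were lower in spliced and higher in intronic RNA, and 22 the reverse.

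Ribosomal protein genes stood below the common shift in spliced RNA. Of 70 tested, 44 fell and 15 rose, with a median of -0.52 against 0.28 over all genes, and under TMM and median-of-ratios scaling 53 and 54 fell. Over all 8461 genes, 1743 and 2189 were lower under these scalings. RPS29 fell from a recovery of 0.350 to 0.0542 (-2.70 ± 0.25, edgeR adjusted p = 8.16e-05) and RPL31 from 1.13 to 0.254 (-2.16 ± 0.12), but RPL39 rose from 0.0263 to 0.799 (4.93 ± 0.68, adjusted p = 0.000402). RPL39 held 3.78 and 14.7 RPM in the 2 J2 libraries with drug, which differed widely. Reads of these genes can be shared with pseudogenes, so their spliced values are uncertain. For their intronic reads, 20 genes were higher and 4 lower of 59, where 25.7% and 2.93% of all genes were, with a median of 0.28 against 0.46. Under TMM scaling the counts became 4 higher and 14 lower, beside 299 and 449 of all 3992 genes. Of 84 introns of ribosomal protein genes tested against the rest of their gene, 5 were raised and 7 lowered. Over all introns tested, 2.49% were raised and 3.19% lowered. The calls among the 84 included RPL30 intron 1 (-3.25 ± 0.29, edgeR adjusted p = 2.28e-11) and RPL7A intron 1 of 7 (1.76 ± 0.30, adjusted p = 0.000142). Against the spliced reads of its gene, RPL30 intron 1 did not pass (-0.35 ± 0.25, edgeR adjusted p = 0.403). RPL7A intron 1 passed there too (2.34 ± 0.27, edgeR adjusted p = 3.26e-05).

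Genes of double-stranded RNA sensing varied among themselves. Of 15 tested for spliced RNA, 6 were higher and 1 lower, with a median of 0.43, beside 35.8% higher and 13.8% lower and a median of 0.28 over all genes. EIF2AK2, the kinase PKR, had 2.38 ± 0.269 RPM (SD, n = 2) in vehicle-treated input, 0.736 ± 0.138 in drug-treated input, and 0.695 ± 0.164 and 2.31 ± 0.893 RPM in J2 RNA. It stood lower with drug in the input and higher with drug in J2 RNA (3.42 ± 0.47, edgeR adjusted p = 0.000410). DDX58, which encodes the sensor RIG-I, had the same course (2.75 ± 0.45, adjusted p = 0.00102). IFIH1 did not pass for spliced (1.38 ± 0.55, adjusted p = 0.0596) or intronic reads (0.33 ± 0.40, adjusted p = 0.576). Under TMM scaling 5 of the sensing list were higher and 3 lower, beside 2258 and 1743 of all 8461 genes. ADAR, the editing enzyme that marks double-stranded RNA, is not in the sensing list. It was counted with the double-stranded RNA binding proteins below, and it fell (-0.56 ± 0.13, edgeR adjusted p = 0.00544).

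Splicing factors had medians below the common shift for spliced and, apart from the single SF3b gene tested, above it for intronic RNA. In the SF3b complex, 3 of 7 tested genes were lower and 0 higher for spliced RNA: SF3B2 (-0.52), PHF5A (-1.17) and SF3B3 (-0.70). SF3B1, the largest subunit, had under 1 RPM of spliced reads in each group mean and was not tested. Other spliceosome genes were 10 higher and 14 lower of 40 for spliced RNA, and 8 higher and 0 lower of 18 for intronic RNA, with medians of -0.07 and 0.92. The background was 35.8% higher and 13.8% lower for spliced and 25.7% and 2.93% for intronic RNA. SR and hnRNP regulators were 6 higher and 10 lower of 31, and 6 and 2 of 14. Under TMM scaling the spliced counts were 7 and 19 for other spliceosome genes and 4 and 12 for the regulators, and the intronic counts 2 and 0, and 2 and 2. All genes then gave 2258 and 1743 of 8461 for spliced and 299 and 449 of 3992 for intronic reads. SRSF3, a splicing regulator with a poison exon in the intron that held 99.5% of its intronic reads (intron 3 of 5, chr6:36598984-36601151), fell in intronic recovery from 1.39 to 0.538 (-1.37 ± 0.14, edgeR adjusted p = 2.36e-07).

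The counts of the other lists stand against the same background. For spliced RNA, interferon-stimulated genes were 11 higher and 5 lower of 28, genes reported with edited Alu repeats 9 and 3 of 17, and mitotic genes 11 and 7 of 27. Nuclear retention and export genes were 10 and 3 of 25, nonsense-mediated decay factors 3 and 4 of 16 and double-stranded RNA binding proteins 4 and 3 of 18. Mesenchymal markers were 0 and 4 of 7, and luminal markers 0 and 0 of 3. Under median-of-ratios scaling, interferon-stimulated genes became 6 and 10, mitotic genes 8 and 9 and double-stranded RNA binding proteins 2 and 7. The background turned as well, to 1817 higher and 2189 lower of all 8461 genes.

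Among genes with at least 5 RPM in a group and 20 reads in each, the largest changes of spliced RNA were in AMD1, an enzyme of polyamine synthesis (5.43 ± 0.59, edgeR adjusted p = 0.000153), PLS3, an actin bundler (5.12 ± 0.55), RPL39, given above, and DLG1, a scaffold protein (4.65 ± 0.58). AMD1 held 2.29 and 2.98 RPM in vehicle-treated input, 1.26 and 0.875 in drug-treated input, 0.660 and 0.526 in J2 RNA with vehicle and 6.16 and 14.5 with drug. Both of the last-named libraries were above all others and apart from each other. For intronic RNA, SMURF2, a ubiquitin ligase, rose most (3.51 ± 0.40, adjusted p = 4.61e-07), with 81.1% of its intronic reads in intron 8 of 18 (chr17:64578577-64580788) and a recovery that went from 0.412 to 4.68. KLF4, a transcription factor, rose by 2.32 ± 0.29 with 71.6% in intron 3 of 4 (chr9:107487193-107487294). HFM1 and SLCO5A1 fell most, by -5.54 ± 0.87 and -5.40 ± 0.87, each through 1 intron. HFM1 held 3036 and 293 RPM in the 2 input libraries with drug, and its change ran from -6.40 to -3.03 when 1 library was left out. The SLCO5A1 change ran from -6.27 to -2.86 in the same way, and its intron holds the small RNA gene RN7SKP29.

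The last comparison asked whether the joined exons around an intron changed in recovery apart from the other junctions of the gene. Of 33412 introns tested by their spliced reads, 10103 (30.2%) did so, 4570 (13.7%) higher and 5533 (16.6%) lower. Junctions differed from introns in that the drug effects in input and J2 RNA did not run together. Over 27834 junctions with at least 20 reads in every library, the correlation between the drug effect on the junction's share in the input and in J2 RNA was -0.21, and 60.7% had opposite signs. For introns it was 0.88 over 3170, with 16.2% opposite.

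The junctions with the largest changes had shares in J2 RNA with vehicle close to those in the input with drug. SERINC1 encodes a membrane protein, and the junction across its intron 1 of 9 (chr6:122458682-122471698) took 20.4% and 17.4% of the gene's spliced reads in vehicle-treated input and 62.9% and 62.3% in drug-treated input. In J2 RNA it took 72.4% and 71.0% with vehicle and 20.4% and 7.32% with drug (-6.96 ± 0.51, edgeR adjusted p = 1.42e-05). First introns of PIGK (-6.05), RRM1, a ribonucleotide reductase subunit (-5.49), and RPF2, a ribosome assembly factor (-5.30), had the same course, as did intron 7 of 9 of SLC39A6, a zinc transporter (-5.60).

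The opposite course was seen in RPL6 intron 6 of 6 (chr12:112405377-112405852), a large-subunit ribosomal protein gene. Its junction took 7.80% and 7.74% in vehicle-treated input, 1.40% and 1.14% in drug-treated input, 1.33% and 1.22% in J2 RNA with vehicle and 6.46% and 12.9% with drug (5.73 ± 0.40, edgeR adjusted p = 1.1e-05). Introns 3 and 4 of 12 of EIF3L, a translation initiation factor subunit, gave 5.62 and 5.65, intron 7 of 11 of the chaperone gene HSP90AB1 gave 5.64 and intron 11 of 13 of the proteasome gene PSMD11 gave 5.56. In all 10 junctions the share went one way with drug in the input and the other way in J2 RNA, a course that choosing the largest changes favours. The 2 J2 libraries with drug differed from each other by up to 2.82 times in these shares.

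**Figure D5:**
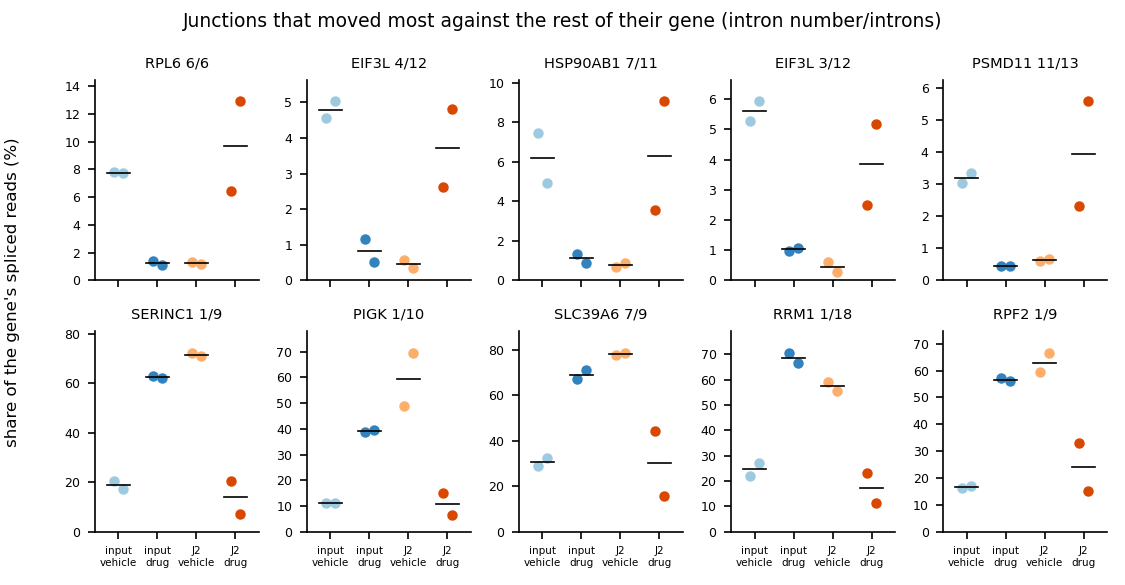
Each panel is 1 of the 10 junctions with the largest changes, 5 raised and 5 lowered, with the gene and the intron number above it. The y axis is the share of the gene's spliced reads that cross that intron, in percent, with 1 point per library and a line at the mean of the 2. J2 RNA with vehicle lies near the input with drug, and J2 RNA with drug nearer the input with vehicle.

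Base composition moved with the junction result. With junctions divided into 5 classes by the GC content of the 100 bases of transcript on each side, relative to the mean of the gene, the median change went from -0.23 in the lowest class to -0.10, 0.01, 0.12 and 0.16 in the highest. The lowest and the highest class held 2643 and 2509 of the calls, against 1409 in the middle one. Over genes, the change of spliced recovery correlated with transcript GC content at -0.27 (Spearman, 8278 genes). The part of base composition in these results was not tested. Of the 47 introns that departed from their gene, 38 could be tested as junctions, of which 11 were called in the same direction as their intronic reads and 3, in FADS3, FLNA and RAPGEF1, in the opposite one.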

How the data were processed

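Libraries were made with a stranded polyadenylated RNA kit, per the labels' protocols. The submitters' processing notes list HISAT2 2.0.4 and 2 genome builds, hg38 and mm10; the counting program and strand setting are not given in the sources used here. The deposited tables hold, for 142224 introns, a count of reads taken as intronic, a larger count whose excess was taken as spliced (a reading inferred from the values), and an RPKM the authors computed from the first count, which gave each library's depth. Of these, 18 introns without the last values were left out, and 142018 of 142206 matched a GENCODE 29 intron, whose GRCh38 coordinates are printed (the tables list 1 base more on each side). Strand of counting is unknown, so antisense genes cannot be told apart.

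Counts were fitted with edgeR 4.0.16 (R 4.3.3; quasi-likelihood, 4 group means, all 8 libraries). Introns and genes needed 1 RPM in 2 libraries. Tests against other introns, spliced reads or other junctions used 2 counts per library with 1 term per library. Adjusted p under 0.05 (Benjamini-Hochberg over all features of a comparison) was called. The SE is the log2 change over the square root of F and may be too small where reads are few. Alternatives used limma 3.58.1, DESeq2 1.42.0, other scalings, filters, a replicate block and each library left out. P-values measure the spread between 2 libraries a group.

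Named introns were up to 10 each way by size, called in both tests with the same sign, with 20 reads in each group, free of other genes' exons and with 1 sign in all fits without 1 library; junctions were up to 5 and genes up to 6 each way by like rules, genes with 5 RPM in a group. Other introns of the 47 were named after their values were seen. Members and lists were chosen with earlier results of these data known. On simulated data the test against other introns recovered 3.51%, 30.3% and 62.3% of log2 changes of 1, 2 and 3 (3735 introns). The share of false calls in the libraries themselves was not tested. Folding used RNAfold 2.7.2 and overlaps bedtools 2.31.1.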

Additional observations from a re-analysis of the deposited data

How the results depend on the processing

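Counts are given as higher, then lower. Scaling mattered where depth enters. TMM gave 299 and 449 genes for intronic reads and 243 and 461 single introns, and median-of-ratios scaling gave 336 and 409, and 266 and 437. For spliced reads of genes median-of-ratios scaling gave 1817 and 2189, and KRT8, at 0.01 on the main scale, fell by 0.33. DESeq2 lowered the counts to 63 lower genes for intronic reads and to 490 and 66 introns, and no filter gave 77 lower introns. Against the other introns of the gene, limma with a pseudocount of 1 gave 31 and 49, a floor of 0.2 RPM gave 32 and 41, and introns with no exon of any other transcript, fewer in number, gave 16 and 27. Against spliced reads, 0.2 RPM gave 100 and 86, introns without other exons 38 and 23, and limma with a pseudocount of 5 gave 361 lower. Introns without other exons gave 111 and 14 in the depth-scaled test, and 0.2 RPM gave 8479 higher junctions. The cause of the other moves was not tested.

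Leaving out 1 library in turn gave 37 to 85 higher and 46 to 116 lower introns against the other introns, 171 to 303 and 77 to 191 against spliced reads, and 524 to 683 and 77 to 135 scaled to depth. Genes ran from 730 to 934 and 65 to 107 for intronic, 2343 to 3376 and 880 to 1265 for spliced reads, and junctions from 3296 to 5013 and 4045 to 6068. The fewest introns against the other introns came without input drug replicate 2. Of 1753 further values of single genes, introns and junctions, 1595 kept their direction and call.

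The labels number the replicates 1 and 2 in each group, without saying that a number is shared. Deviations of same-numbered libraries correlated at -0.08 to 0.10 for spliced and -0.15 to 0.00 for intronic reads, which shows no pairing. With 2 libraries a group, these values cannot decide whether same-numbered libraries share a culture. With a replicate block the counts were 66 and 87 against the other introns, 305 and 163 against spliced reads, 642 and 114 for introns, 956 and 100 for intronic and 2958 and 1140 for spliced reads of genes, and 4387 and 5300 junctions. A robust dispersion, chosen after seeing the data, gave 94 and 121 against the other introns.

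Depth limits the single-intron results. In simulated data 30.3% of changes of 2 on the log2 scale were recovered against the other introns, so an intron that was not called cannot be taken as unchanged.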
